A study of Homo sapiens with 16 samples.

Results

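The genes described here are 37 named members of glucose breakdown and of the cellular response to low oxygen, out of 61906 genes listed in the deposited expression tables. They were chosen by name: every row of both tables whose gene symbol was on the list was taken, and transcript values were summed per gene. The study depleted the RNA-binding protein HNRNPH1 with a small interfering RNA (siHNRNPH1) and used a non-targeting siRNA (siNegative) as control. It did so in 2 established human cell lines, HEK-293T, an embryonic kidney line, and HT-1080, a fibrosarcoma line. Each siRNA was transfected at 20 nM with a lipid reagent, and total RNA was taken 48 h later from 3 biological replicates per group, which gives 4 groups and 12 short-read libraries. A further 4 pools, 1 per group, were read as full-length cDNA (IsoSeq). HEK-293T was grown in DMEM and HT-1080 in EMEM, both with fetal bovine serum and Plasmocin, so cell line and medium cannot be told apart. The labels give no glucose or oxygen level. The depletion is transient and partial, so siHNRNPH1 cells still hold some HNRNPH1 RNA.

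Glycolysis converts glucose to pyruvate in the cytosol and yields ATP without oxygen. Glucose enters through GLUT transporters, pyruvate is turned to lactate by lactate dehydrogenase, and lactate leaves through monocarboxylate transporters. When oxygen is plentiful, prolyl hydroxylases encoded by the EGLN genes mark the transcription factor subunit HIF1A for VHL-dependent destruction. When oxygen falls, HIF1A accumulates, pairs with ARNT and binds short promoter elements whose core reads ACGTG or GCGTG, and many glycolytic genes, PDK1, VEGFA, BNIP3 and CA9 are classical targets. PKM, which encodes pyruvate kinase, is also a textbook case of alternative splicing: its M1 and M2 exons are normally used one at a time, and proteins of the hnRNP family take part in that choice. HNRNPH1 itself binds G-rich RNA and regulates splicing.

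HNRNPH1 RNA (ENSG00000169045.17) was lower in every siHNRNPH1 library. In HEK-293T it went from 1107, 1105 and 1121 CPM (expected counts scaled to the library total) with siNegative to 234, 376 and 394 CPM with siHNRNPH1, and in HT-1080 from 635, 606 and 617 CPM to 231, 231 and 228 CPM. The log2 fold change in HEK-293T was -1.76 (SE 0.20, edgeR quasi-likelihood test with Benjamini-Hochberg adjustment over all genes, adjusted p = 0.00939), or -1.58 without siHNRNPH1 replicate 1 (adjusted p = 6.94e-21), and in HT-1080 it was -1.49 (SE 0.04, adjusted p = 6.76e-09). The HNRNPH1 call in HEK-293T was lost without any 1 control (adjusted p = 0.0743 to 0.0760) or siHNRNPH1 replicate 2 (0.0514), at log2 fold changes of -1.84 to -1.76. Total expected counts ranged from 107.7 to 121.0 mega per HEK-293T library and from 27.3 to 32.7 mega per HT-1080 library. Of the HEK-293T libraries, siHNRNPH1 replicate 1 stood apart: its log2 CPM correlated with those of replicates 2 and 3 at r = 0.965 and 0.962 across genes, against 0.999 between replicates 2 and 3. Each HEK-293T call is therefore given with and without it. In HT-1080, siNegative replicate 2 departed less, with r = 0.996 to both other controls, against 0.998 between those. Markers of the lines followed the labels: 7 fibrosarcoma markers summed to 7877 to 9494 CPM in HT-1080 and to 14.9 to 17.2 CPM in HEK-293T. The 6 HEK-293T markers separated the lines less, summing to 661 to 992 CPM in HEK-293T and 209 to 232 CPM in HT-1080. Of these, only NEFM and SALL2 stayed under 3 counts in every HT-1080 library.

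The promoter elements through which HIF acts can be read in part from the genes' own sequence. RefSeq promoter windows (GRCh38.p14, 250 bases before to 50 after the start, the first listed start per gene) were matched for 32 of the 37 genes by symbol, all but SLC2A3, SLC16A1, BNIP3L, VEGFA and NDRG1. The core ACGTG or GCGTG, on either strand, was found in 24 of these 32 windows (75.0%), the others being EGLN3, HK1, PDK1, PFKM, PFKP, PGAM1, SLC16A3 and TPI1, against 13213 of 27305 windows of all genes in the table (48.4%). ACGTG alone was in 14 of the 32 (43.8%), against 21.6% of all windows. All 6 matched hypoxia response genes held a core. The 7 short stretches here are shown because they come from genes with called changes described next, 4 that rose and 3 that fell with siHNRNPH1 in HT-1080. Each is written 5′ to 3′ along the gene's strand with the core in capitals, and a core on the other strand reads CACGT or CACGC. The stretch CACGTG holds a core on both strands, which overlap and are counted as 2.
P4HA1 (chr10:73096936-73096964, minus strand): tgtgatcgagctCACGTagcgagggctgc
ANKRD37 (chr4:185396668-185396696, plus strand): gcgccgggctccACGTGccagtgtttgtg
PFKFB4 (chr3:48556953-48556981, minus strand): tgagttgggcatGCGTGgtcggaggccgg
PFKL (chr21:44299877-44299905, plus strand): tgctcagggcccGCGTGacattgcacagg
BNIP3 (chr10:131982040-131982068, minus strand): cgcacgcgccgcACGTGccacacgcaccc
ENO2 (chr12:6914450-6914478, plus strand): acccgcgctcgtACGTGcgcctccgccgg
LDHA (chr11:18394465-18394493, plus strand): agcccgactcacACGTGggttcccgcacg
A match to so few letters is a description of the window and does not show that a factor binds there. The core was in windows of genes that rose and of genes that fell. The whole windows of BNIP3 and LDHA, both of which fell in HT-1080, each held 6 cores.

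In HT-1080, 29 of the 36 tested genes changed with siHNRNPH1, 12 upward and 17 downward. That share, 80.6%, stood beside 65.3% of all 16145 genes tested in this line (32.7% higher and 32.6% lower), so most expressed genes were called there and a call by itself carries little about glycolysis or hypoxia. The directions differed by role. Of 17 glycolytic enzymes, 12 fell and 2 rose, with a median log2 fold change of -0.27, while 6 of 8 tested hypoxia response genes and 3 of 4 flux regulators rose, with medians of 0.43 and 0.28. The median of all genes tested was 0.01. Without control replicate 2, 32 genes were called beside 70.4% of all genes. With 1 estimate of spread shared by all 12 libraries, 14 genes were called, beside 29.3% of all genes. The enzymes HK2, GPI, PFKP, TPI1, PGK1, PGAM1, ENO1, PKM and LDHB then lost their calls (edgeR adjusted p = 0.0998 to 0.505). The flux regulators PDK1, PFKFB3 and PFKFB4 lost theirs too (0.0703 to 0.246). All of these kept the sign of their log2 fold change. With no scaling factor beyond library size, 10 enzymes fell and 3 rose, and the hypoxia response and regulator counts were the same as with scaling. In bulk RNA, a change in every cell and a larger change in some cells cannot be told apart.

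In HEK-293T, 3 of 36 tested genes changed: PFKFB4 and NDRG1 rose and ENO2 fell. That share, 8.33%, was close to the 10.0% of all 19966 genes tested (5.12% higher, 4.88% lower). Without siHNRNPH1 replicate 1, 24 genes were called, 15 higher and 9 lower, beside 61.8% of all genes (30.5% higher, 31.3% lower). Leaving out any 1 control library, or siHNRNPH1 replicate 2, left none of the 3 calls, with edgeR adjusted p-values of 0.0532 to 0.0960 and log2 fold changes of the same sign. Few genes of any kind were called then, 20, 0 and 0 without control replicate 1, 2 and 3 (with 3525, 3517 and 3486 at an unadjusted p under 0.05), and 245 of 20371 without siHNRNPH1 replicate 2. Without siHNRNPH1 replicate 3 the 3 genes were called, beside 639 of all 20382. DESeq2 called 6 of the 36, beside 19.9% of all genes.

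**Figure D1:**
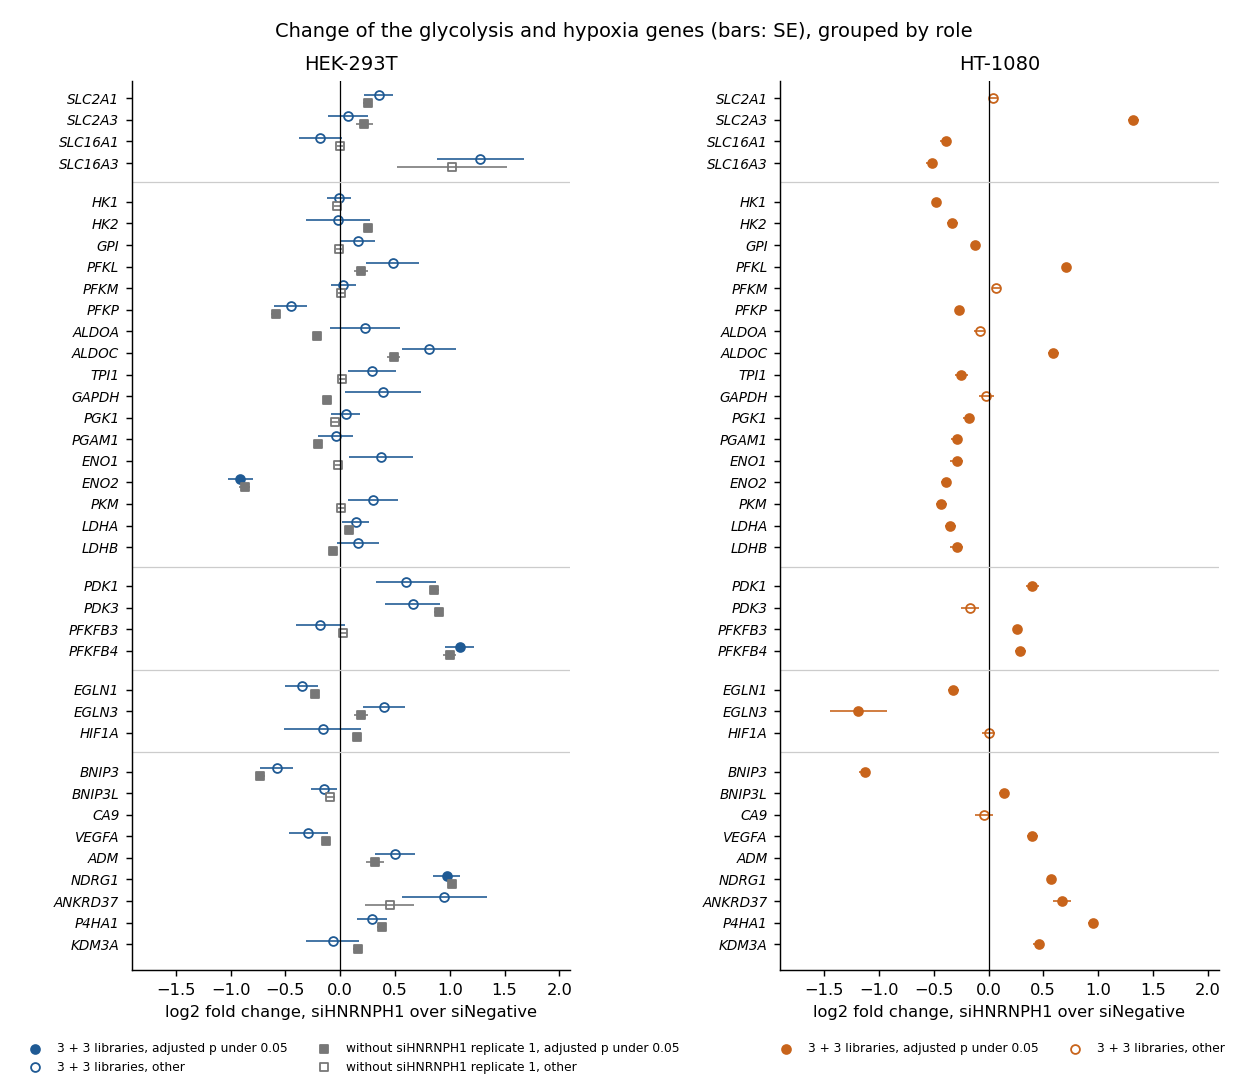
Log2 fold change (x axis) of each gene (y axis, grouped from top to bottom as transport, enzymes, flux regulators, oxygen sensing and hypoxia response) for siHNRNPH1 over siNegative in HEK-293T (left) and HT-1080 (right), with SE bars; filled symbols passed the adjusted p threshold of 0.05, and squares leave out HEK-293T siHNRNPH1 replicate 1. In HT-1080 most enzymes sit left of 0 and most hypoxia response genes right of it, while HEK-293T bars with replicate 1 are wide and few symbols are filled.

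Among the 4 transport genes, SLC2A3 moved most. SLC2A3 (ENSG00000059804.16, GLUT3 glucose transporter) stood in HT-1080 at 67.5, 62.8 and 69.4 CPM with siNegative and at 172, 172 and 178 CPM with siHNRNPH1. The groups were far apart, and the log2 fold change was 1.32 (SE 0.05, edgeR adjusted p = 2.08e-08), a 2.49-fold rise. In HEK-293T its siNegative libraries held 5.64, 5.47 and 6.11 CPM, and the siHNRNPH1 libraries 4.51, 6.73 and 7.19 CPM, with replicate 1 below all controls and replicates 2 and 3 above them. The log2 fold change there was 0.07 (SE 0.18, adjusted p = 0.850), and 0.22 (SE 0.08, adjusted p = 0.0184) without replicate 1. SLC2A1, the broadly expressed GLUT1 transporter, held 361 CPM ± 5.59 (SD, n = 3) with siNegative and 388 CPM ± 2.19 with siHNRNPH1 in HT-1080 and was not called (log2 fold change 0.04, adjusted p = 0.437). It was called at 0.11 (adjusted p = 0.0407) when only library size was used for scaling. In HEK-293T, SLC2A1 was at 0.35 (edgeR adjusted p = 0.156), and at 0.25 (adjusted p = 6.54e-06) without replicate 1.

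The lactate exporters went the other way in HT-1080. SLC16A3 (ENSG00000141526.18), which encodes the exporter MCT4, went from 648, 672 and 626 CPM to 463, 474 and 485 CPM, with no overlap (log2 fold change -0.52, SE 0.05, edgeR adjusted p = 8.02e-06). In HEK-293T it was close to absent, at 0.0900, 0.0516 and 0.0578 CPM with siNegative and 0.213, 0.116 and 0.167 CPM with siHNRNPH1, and it was not called (adjusted p = 0.103). It passed the low-count filter there with as few as 6 counts in a library, so its HEK-293T fold change rests on very few reads. SLC16A1, the transporter MCT1, fell in HT-1080 by 0.39 on the log2 scale (SE 0.05, edgeR adjusted p = 5.81e-05). In HEK-293T, SLC16A1 read 214 CPM in siHNRNPH1 replicate 1 and 350.4 and 364 CPM in the others, around a control mean of 343 CPM.

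The first enzymes of the pathway phosphorylate glucose and commit it to breakdown. HK1 (ENSG00000156515.24), the hexokinase of most tissues, stood in HT-1080 at 327, 320.2 and 318 CPM with siNegative and at 239, 239.8 and 246 CPM with siHNRNPH1. That is a log2 fold change of -0.48 (SE 0.04, edgeR adjusted p = 4.11e-06), and every siHNRNPH1 library was below every control. In HEK-293T the same gene read 124, 126 and 120.0 CPM against 124, 129 and 122 CPM, overlapping, with a log2 fold change of -0.01 (SE 0.11, adjusted p = 0.979). HK2, the inducible hexokinase, fell in HT-1080 by 0.33 (SE 0.05, edgeR adjusted p = 5.05e-04). In HEK-293T, HK2 stood at 43.4 CPM in siHNRNPH1 replicate 1 and at 94.3 and 94.5 CPM in replicates 2 and 3, on either side of a control mean of 76.3 CPM, and it was called higher only without replicate 1 (0.25, SE 0.03, adjusted p = 4.31e-07).

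The 3 phosphofructokinase genes, whose products form the main control point of the pathway, did not move together in HT-1080. PFKL (ENSG00000141959.17), the liver-type subunit, rose from 106, 107 and 102 CPM to 179, 176 and 184 CPM (log2 fold change 0.71, SE 0.04, edgeR adjusted p = 4.83e-07). PFKP, the platelet-type subunit, fell by 0.27 (SE 0.04, adjusted p = 3.43e-04), and PFKM, the muscle type, held 109.7 CPM with siNegative and 120.4 CPM with siHNRNPH1 and was not called (0.07, adjusted p = 0.176, but called at 0.14 with adjusted p = 0.0175 when only library size was used for scaling). In HEK-293T, PFKL read 99.2, 96.6 and 91.0 CPM in controls and 178, 121 and 106 CPM with siHNRNPH1, all higher, with replicate 1 highest (0.48, SE 0.24, edgeR adjusted p = 0.262). Without replicate 1, PFKL rose by 0.19 (adjusted p = 0.0176) and PFKP fell by 0.59 (adjusted p = 1.30e-11). PFKL rose and PFKP fell in HT-1080 and, without replicate 1, in HEK-293T.

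Aldolase splits the sugar into 3-carbon units. ALDOC, the brain-type aldolase, rose in HT-1080 from a mean of 62.3 CPM ± 2.41 (SD, n = 3) to 98.6 CPM ± 1.47 (log2 fold change 0.59, SE 0.05, edgeR adjusted p = 3.33e-06). ALDOA, the main aldolase, was not called (-0.08, adjusted p = 0.198). The enzymes downstream of aldolase mostly fell a little: TPI1, which interconverts the 3-carbon sugars, by 0.25, PGK1, an ATP-forming kinase, by 0.18, PGAM1, a mutase, by 0.29, and ENO1, the main enolase, by 0.29 on the log2 scale. The isomerase GPI, an earlier step, fell by 0.12 (edgeR adjusted p = 0.0231), and GPI lost its call when any of 4 single libraries was left out, the 3 siHNRNPH1 libraries and control replicate 1. PGK1 lost its call without siHNRNPH1 replicate 2 (adjusted p = 0.0516). With library size as the only scaling neither GPI (-0.06, adjusted p = 0.249) nor PGK1 (-0.11, adjusted p = 0.0581) was called. GAPDH, often used as a reference gene, was not called in HT-1080, at -0.02 (SE 0.07, adjusted p = 0.803). Its controls read 5883, 6791 and 5916 CPM, with replicate 2 above both others, and GAPDH turned to 0.05 (adjusted p = 0.0248) without that library and to 0.05 (adjusted p = 0.519) with library size as the only scaling. In HEK-293T none of these was called with all libraries. Without replicate 1, ALDOC was called there at 0.49 (edgeR adjusted p = 2.53e-07, against 0.81) and PGAM1 at -0.20 (adjusted p = 7.68e-07, against -0.04). ALDOA and GAPDH then turned from 0.23 to -0.21 (adjusted p = 1.43e-05) and from 0.39 to -0.12 (adjusted p = 4.88e-04). GAPDH, PGAM1, PGK1 and several other enzymes have processed copies in the genome, so their counts depend on how RSEM split shared reads.

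ENO2, the neuronal enolase, fell in both lines. In HEK-293T, ENO2 (ENSG00000111674.9) stood at 20.5, 19.4 and 19.3 CPM with siNegative and at 9.75, 11.0 and 11.5 CPM with siHNRNPH1. The groups did not overlap and replicate 1 was lowest (log2 fold change -0.91, SE 0.11, edgeR adjusted p = 0.00972). The value was -0.87 (SE 0.05, adjusted p = 4.57e-12) without replicate 1. In HT-1080 the controls read 188, 193 and 183 CPM and the siHNRNPH1 libraries 150.5, 148 and 152 CPM (-0.39, SE 0.04, adjusted p = 2.57e-05).

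At the end of the pathway, pyruvate kinase and lactate dehydrogenase fell in HT-1080. PKM (ENSG00000067225.21) went from 3464, 3706 and 3505 CPM to 2769, 2760.2 and 2777 CPM, with a wide gap between the groups (log2 fold change -0.43, SE 0.05, edgeR adjusted p = 4.24e-05). With 1 spread shared by all 12 libraries, PKM stood there at -0.44 and was not called (adjusted p = 0.0998). In HEK-293T, PKM read 1233, 1234 and 1217 CPM in controls and 1997, 1313 and 1259.5 CPM with siHNRNPH1, all above the controls but by very different amounts. Its log2 fold change was 0.30 (SE 0.23, adjusted p = 0.462), and 0.01 (SE 0.03, adjusted p = 0.770) without replicate 1. LDHA, the dehydrogenase subunit that favours lactate formation, fell by 0.35 (SE 0.05, edgeR adjusted p = 2.22e-04), and LDHB, the subunit of oxidative tissues, by 0.29 (SE 0.06, adjusted p = 0.00135), both in HT-1080. In HEK-293T neither was called with all libraries (0.14 and 0.16), and without replicate 1 LDHA was called at 0.08 (edgeR adjusted p = 0.0184) and LDHB at -0.07 (adjusted p = 0.0331).

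Among the 4 flux regulators, PFKFB4 rose in both lines. PFKFB4 makes and breaks the allosteric activator of phosphofructokinase. In HEK-293T, PFKFB4 (ENSG00000114268.12) went from 8.33, 8.76 and 9.14 CPM to 20.5, 18.8 and 17.5 CPM. All siHNRNPH1 libraries, replicate 1 included, stood well above the controls (log2 fold change 1.09, SE 0.13, edgeR adjusted p = 0.00978, and 1.00 with SE 0.06 without replicate 1). In HT-1080 it went from 123, 124 and 116 CPM to 154, 152 and 158 CPM (0.29, SE 0.05, adjusted p = 3.22e-04). With 1 spread shared by all 12 libraries, PFKFB4 stood there at 0.28 and was not called (adjusted p = 0.0703). Its paralog PFKFB3 rose in HT-1080 by 0.26 (adjusted p = 5.47e-04).

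PDK1 and PDK3 encode pyruvate dehydrogenase kinases, which shut pyruvate out of the citric acid cycle. PDK1 in HT-1080 rose by 0.40 (SE 0.06, edgeR adjusted p = 1.95e-04), while PDK3 held 31.6 CPM ± 4.10 (SD, n = 3) with siNegative and 29.5 CPM ± 0.743 with siHNRNPH1 (-0.17, edgeR adjusted p = 0.109, and -0.27 with adjusted p = 1.46e-05 without control replicate 2). In HEK-293T, PDK3 read 53.1, 56.0 and 55.1 CPM in controls and 54.2, 104 and 109 CPM with siHNRNPH1. Replicate 1 lay among the controls and the other siHNRNPH1 libraries far above them. PDK1 showed the same split, at 27.5 CPM in replicate 1 and 55.2 and 59.7 CPM in replicates 2 and 3, against 30.5 CPM in controls. Without replicate 1, PDK3 rose by 0.90 (SE 0.04, edgeR adjusted p = 1.36e-15) and PDK1 by 0.86 (SE 0.04, adjusted p = 5.18e-14). With it, neither was called (adjusted p = 0.167 and 0.232).

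Of the oxygen sensing genes, HIF1A itself was not called in either line with all libraries. In HT-1080 the siNegative libraries averaged 861 CPM ± 73.0 (SD, n = 3) and the siHNRNPH1 libraries 899 CPM ± 8.05 (log2 fold change -0.00, edgeR adjusted p = 0.956). Its control replicate 2, at 776 CPM, was below the other controls, at 904 and 902 CPM, and without it HIF1A was called at -0.07 (adjusted p = 0.00253). With library size as the only scaling HIF1A stood at 0.06 (adjusted p = 0.394). HIF1A is regulated mainly at the level of its protein, which these data do not measure. In HEK-293T, HIF1A read 80.7 CPM in siHNRNPH1 replicate 1 and 207 and 214 CPM in replicates 2 and 3, around a control mean of 182 CPM. The log2 fold change was -0.16 (SE 0.35, edgeR adjusted p = 0.801), and it turned to 0.15 (SE 0.03, adjusted p = 1.25e-04) without replicate 1.

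The hydroxylase genes EGLN1 and EGLN3, both also known targets of the hypoxia response, fell in HT-1080. EGLN3 (ENSG00000129521.15) stood at 3.19, 2.36 and 1.65 CPM with siNegative and at 1.27, 1.10 and 0.913 CPM with siHNRNPH1. The groups did not overlap, but the highest control had 87 counts and the lowest siHNRNPH1 library 26 counts (log2 fold change -1.19, SE 0.26, edgeR adjusted p = 0.00245). EGLN1, the main oxygen sensor, fell by 0.32 (SE 0.05, adjusted p = 1.83e-04). In HEK-293T, EGLN3 read 10.7, 11.3 and 10.9 CPM in controls and 17.9, 12.5 and 13.6 CPM with siHNRNPH1, the opposite direction, without passing the test (0.40, SE 0.19, adjusted p = 0.236). Without replicate 1 it was called at 0.19 (SE 0.06, adjusted p = 0.00876), and EGLN1 was called at -0.23 (adjusted p = 4.31e-06, against -0.35 with all libraries).

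Of the 8 hypoxia response genes tested in HT-1080, 6 rose, BNIP3 fell and CA9 was not called. P4HA1 (ENSG00000122884.13), a collagen prolyl hydroxylase subunit, went from 136, 137 and 135 CPM to 281, 270.0 and 276 CPM (log2 fold change 0.95, SE 0.04, edgeR adjusted p = 5.69e-08). ANKRD37 (ENSG00000186352.9), a small ankyrin-repeat gene, went from 6.89, 7.5 and 7.27 CPM to 12.4, 11.9 and 11.9 CPM (0.67, SE 0.08, adjusted p = 3.35e-05). In both genes the siHNRNPH1 libraries lay close together and above every control. KDM3A, a histone demethylase, rose by 0.46 (SE 0.05, edgeR adjusted p = 2.90e-05), and the mitophagy receptor BNIP3L by 0.14 (SE 0.04, adjusted p = 0.0180), a call that was lost when control replicate 3 or siHNRNPH1 replicate 2 or 3 was left out (adjusted p = 0.0698 to 0.0875). In HEK-293T, without replicate 1, P4HA1 was called at 0.38 (edgeR adjusted p = 2.54e-08, against 0.29) and KDM3A at 0.16 (adjusted p = 7.13e-04), which is the opposite sign to its -0.07 with all libraries.

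VEGFA (ENSG00000112715.26), the main angiogenic growth factor, rose in HT-1080 from 1033, 926 and 1042 CPM to 1384, 1356 and 1401 CPM. Every siHNRNPH1 library was above every control (log2 fold change 0.40, SE 0.05, edgeR adjusted p = 1.13e-04). In HEK-293T, VEGFA read 46.3, 45.5 and 47.5 CPM in controls and 28.0, 43.1 and 45.2 CPM with siHNRNPH1. All were below the controls, replicate 1 by far the most (-0.29, SE 0.18, edgeR adjusted p = 0.364, and -0.13 with adjusted p = 0.00612 without replicate 1). NDRG1 (ENSG00000104419.17), a stress-induced gene, rose in both lines. In HEK-293T it went from 78.1, 82.0 and 79.0 CPM to 141, 169.7 and 166 CPM, with replicate 1 again lowest but clear of the controls (0.97, SE 0.12, edgeR adjusted p = 0.00978, and 1.02 with SE 0.03 without replicate 1). In HT-1080, NDRG1 went from 191, 186 and 194 CPM to 293, 299.7 and 299 CPM (0.57, SE 0.04, adjusted p = 1.14e-06).

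BNIP3 (ENSG00000176171.12), a mitophagy receptor and a paralog of BNIP3L, fell in HT-1080 from 407, 440.1 and 405 CPM to 198, 199 and 204 CPM. The siHNRNPH1 libraries lay close together and far below every control (log2 fold change -1.13, SE 0.05, edgeR adjusted p = 7.45e-08, 2.19-fold lower). In HEK-293T it stood at 33.6, 31.8 and 32.2 CPM in controls and at 25.5, 20.6 and 20.2 CPM with siHNRNPH1, also without overlap, and narrowly missed the threshold (-0.58, SE 0.15, adjusted p = 0.0679). The value was -0.73 (SE 0.04, adjusted p = 2.78e-12) without replicate 1. CA9, a carbonic anhydrase used as a hypoxia marker, had 0 to 2 counts per library in HEK-293T and was not tested there. In HT-1080 it held 19.7 CPM ± 1.64 (SD, n = 3) with siNegative and 20.1 CPM ± 0.831 with siHNRNPH1 (-0.04, edgeR adjusted p = 0.634). ADM, a vasodilator peptide gene, had 1 to 8 counts per library in HT-1080 and was not tested there, and in HEK-293T it held 6.89 CPM with siNegative and 9.87 CPM with siHNRNPH1 (0.50, edgeR adjusted p = 0.148, and 0.32 with adjusted p = 0.00105 without replicate 1).

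**Figure D2:**
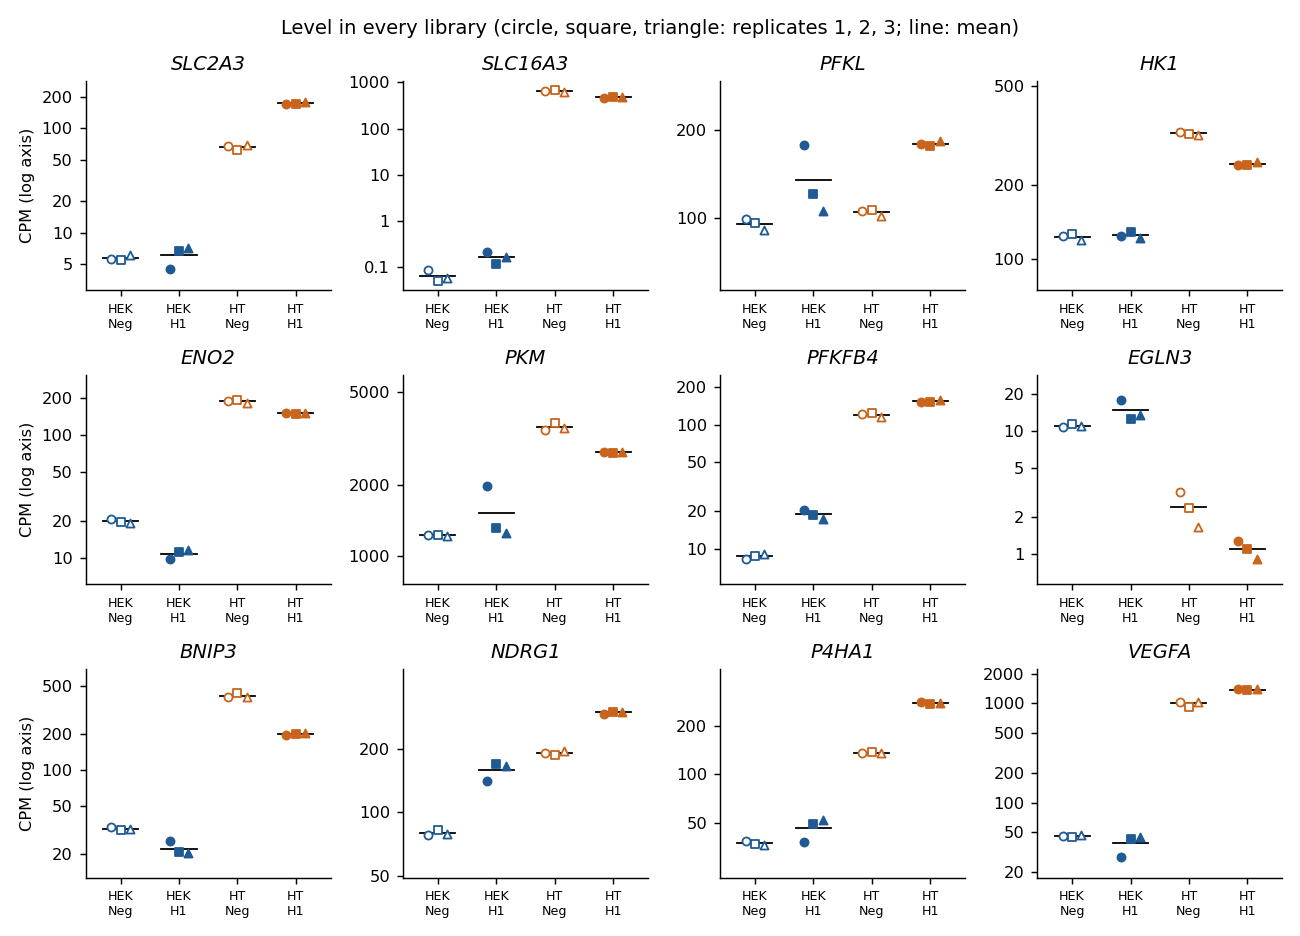
CPM on a log axis (y) of 12 of the genes in each of the 12 libraries (x: HEK-293T and HT-1080 with siNegative, Neg, or siHNRNPH1, H1); circles, squares and triangles are replicates 1, 2 and 3, open for siNegative and filled for siHNRNPH1, and lines are means. SLC2A3, P4HA1 and BNIP3 show a clear gap between the groups in HT-1080, and HEK-293T siHNRNPH1 replicate 1 (filled circle) stands away from replicates 2 and 3 for PKM, PFKL and VEGFA.

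The departure of HEK-293T siHNRNPH1 replicate 1 differed by role. Its level over the mean of replicates 2 and 3 had a median log2 ratio of 0.37 over the 17 glycolytic enzymes, 13 of them above 0. Over the 4 flux regulators the median was -0.89, with 1 above 0, PFKFB4 at 0.17. The median over all genes tested was -0.04, with 9503 of 19966 above 0 and a range of -5.00 to 3.17. GAPDH was at 1.10, ALDOA at 0.97 and ENO1 at 0.86, whereas HIF1A was at -1.38, HK2 at -1.11, PDK1 at -1.05 and KDM3A at -0.92. HNRNPH1 was also lowest in this library, at 234 CPM against 376 and 394 CPM. The part of the lower HNRNPH1 level in these values was not tested.

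**Figure D3:**
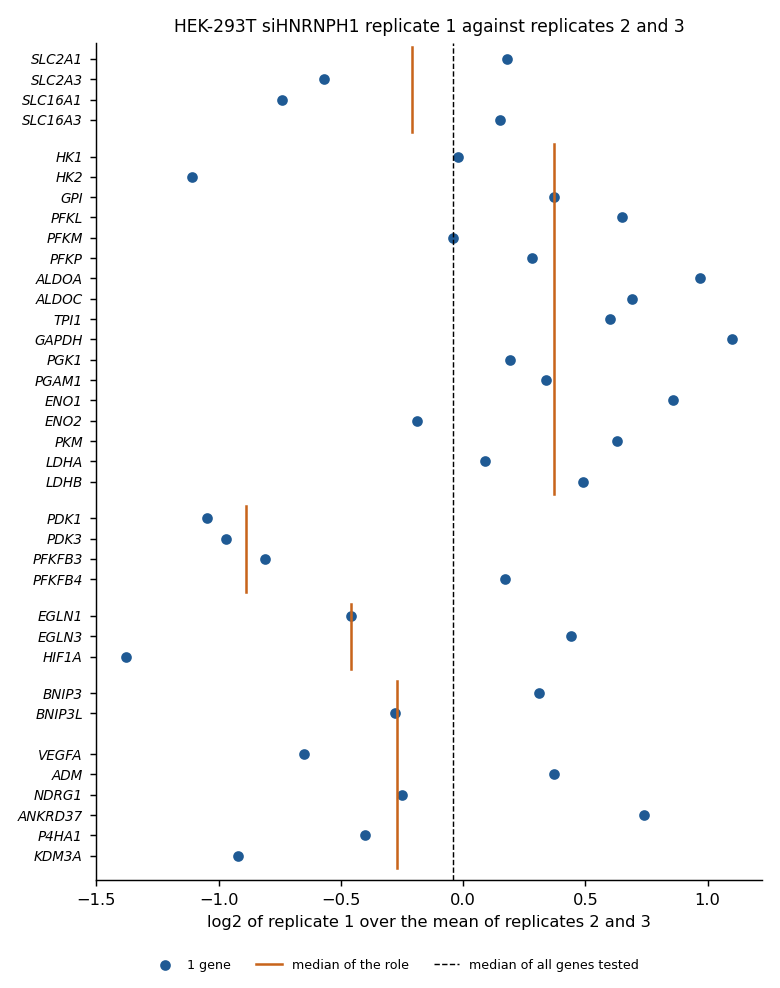
Log2 ratio (x axis) of each gene's level in HEK-293T siHNRNPH1 replicate 1 over the mean of replicates 2 and 3 (y axis: genes by role), with the median of each role (solid line) and of all genes tested (dashed line, -0.04). Most enzymes lie right of the dashed line and PDK1, PDK3, PFKFB3, HIF1A and HK2 left of it.

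The 3 genes called in HEK-293T were called in the same direction in HT-1080: PFKFB4, NDRG1 and ENO2. Of the 15010 genes tested in both lines, 5.42% were called in the same direction and 1.47% in opposite directions. Without HEK-293T siHNRNPH1 replicate 1, 14 genes of the list were called in the same direction in both lines and 4 in opposite directions, beside 31.7% and 15.2% of all genes. Those 4 were HK2, LDHA and EGLN3, higher in HEK-293T and lower in HT-1080, and VEGFA, lower in HEK-293T and higher in HT-1080.

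Whether the siRNA effect differed between the lines was tested as an interaction over all 12 libraries. The difference is the log2 fold change in HT-1080 minus that in HEK-293T. It passed the threshold for 12 of 37 genes, 4 with a positive and 8 with a negative difference, beside 19.0% of all 21276 genes tested (8.13% more positive, 10.8% more negative). SLC2A3 had the most positive difference, 1.19 (SE 0.17, edgeR adjusted p = 9.43e-04), followed by VEGFA at 0.62 (SE 0.18, adjusted p = 0.0331), P4HA1 at 0.60 (SE 0.12, adjusted p = 0.00668) and ENO2 at 0.44 (SE 0.11, adjusted p = 0.0137). ENO2 fell by 0.39 in HT-1080 and by 0.91 in HEK-293T.

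The negative differences were of several kinds. SLC16A3 at -1.86 (SE 0.32, edgeR adjusted p = 0.00233), EGLN3 at -1.67 (SE 0.35, adjusted p = 0.00707) and LDHA at -0.57 (SE 0.13, adjusted p = 0.0126) fell in HT-1080 and had positive, uncalled values in HEK-293T. The SLC16A3 difference rests on 6 to 23 counts per library in HEK-293T. HK1 at -0.55 (SE 0.11, adjusted p = 0.00558) had -0.48 in HT-1080 and -0.01 in HEK-293T. BNIP3 at -0.63 (SE 0.18, adjusted p = 0.0298) had -1.13 in HT-1080 and -0.58 in HEK-293T. PFKFB4 at -0.88 (SE 0.15, adjusted p = 0.00228) and NDRG1 at -0.46 (SE 0.10, adjusted p = 0.0107) rose less in HT-1080 than in HEK-293T. PDK3 at -0.90 (SE 0.27, adjusted p = 0.0391) was not called in either line on its own.

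Several of these calls rested on single libraries or settings. BNIP3 and VEGFA lost theirs when any 1 control or any 1 HT-1080 library was left out (adjusted p = 0.0574 to 0.0816 and 0.0599 to 0.0948). PDK3 lost its call when any library was left out other than HEK-293T siHNRNPH1 replicate 1 and HT-1080 siNegative replicate 2 (0.0603 to 0.0981). ENO2 lost its call without HT-1080 siHNRNPH1 replicate 3 (0.0531) or siNegative replicate 3 (0.0544). With library size as the only scaling, NDRG1 (0.0714) and PDK3 (0.0947) were not called. Without the low-count filter 5 genes differed, beside 8.26% of all genes, SLC2A3, P4HA1, SLC16A3, EGLN3 and PFKFB4. PKM passed the threshold with RLE scaling (0.0474), with library size as the only scaling (0.0491), under DESeq2 (0.0148) and without HEK-293T siHNRNPH1 replicate 2 (0.0289) or 3 (0.0177).

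Without HEK-293T siHNRNPH1 replicate 1, 30 genes differed, 9 more positive and 21 more negative, beside 49.0% of all genes (22.7% more positive, 26.4% more negative). All 12 kept their direction there, and PKM was then called at -0.49 (SE 0.06, edgeR adjusted p = 3.43e-06), against -0.81 (SE 0.26, adjusted p = 0.0533) with every library. CA9 and ADM, which are close to 0 in 1 line, were also among the 30, and their fitted differences depend on the fit's prior count.

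**Figure D4:**
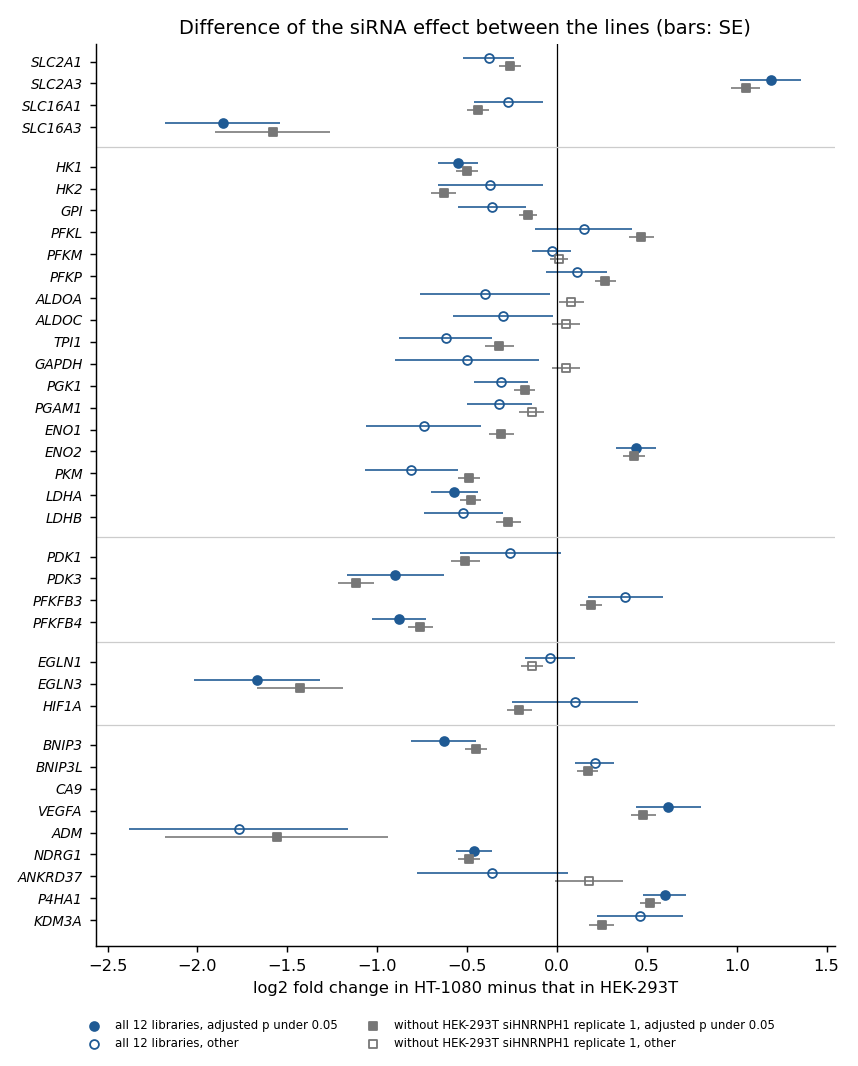
Difference between the lines (x axis: log2 fold change in HT-1080 minus that in HEK-293T, with SE bars) for each gene (y axis, by role), with all 12 libraries (circles) and without HEK-293T siHNRNPH1 replicate 1 (squares); filled symbols passed the adjusted p threshold, and CA9, near 0 counts in HEK-293T, is not drawn. SLC2A3 lies farthest to the right and SLC16A3, with 6 to 23 counts per library in HEK-293T, farthest to the left.

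How the expected counts of a gene divided among its transcripts (transcript usage) was compared with limma diffSplice. Usage was called for 6 of 34 tested genes in HEK-293T, beside 9.59% of all genes tested, and for 14 of 35 in HT-1080, beside 21.2%. Without HEK-293T siHNRNPH1 replicate 1 it was 14 of 34, beside 41.6%. In tests on simulated data this test made many false calls at these group sizes, so its calls are weak evidence here. PFKM, PDK3 and GAPDH were called in both lines. With edgeR's diffSpliceDGE PDK3 was called in neither line (adjusted p = 0.586 and 1.000), and without HEK-293T siHNRNPH1 replicate 1 GAPDH was not called there (0.0767). PFKM alone was called in both lines under every alternative run. For PDK3, ENST00000568479.2 went from 91.9% ± 1.08 (SD, n = 3) to 97.2% ± 1.04 of the gene in HEK-293T, and in HT-1080 from 83.9% ± 3.62 to 90.5% ± 0.611, with no overlap in either (limma diffSplice adjusted p of the transcript 0.0696 and 0.0117). For PFKM, ENST00000551339.6 went from 0.835% to 12.6% in HEK-293T, where the siHNRNPH1 libraries read 14.9%, 11.0% and 12%, (limma diffSplice adjusted p of the transcript 7.31e-07). In HT-1080 its share was 0.485% with siNegative and 6.05% with siHNRNPH1 (adjusted p = 0.256). The PFKM transcripts that passed there were ENST00000359794.11, from 58.6% to 75.7% (adjusted p = 7.60e-05), and ENST00000546964.5, from 22.2% to 10.5% (adjusted p = 6.57e-05).

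PKM lists 25 transcripts, of which 1 held nearly all counts. ENST00000335181.10, the reference M2 transcript, made up 89.0%, 89.4% and 89.9% of PKM in HEK-293T with siNegative and 91.8%, 87.8% and 88.5% with siHNRNPH1. The groups overlapped (difference -0.0499 points, exact permutation p = 1.00, two-sided, where 3 against 3 libraries cannot go below 0.1). Without replicate 1 the difference was -1.25 points (exact permutation p = 0.1). In HT-1080 the share was 88.6%, 89.4% and 88.5% against 89.5%, 89.6% and 89.2%, a difference of 0.553 points (exact permutation p = 0.2). PKM usage was called in HEK-293T (limma diffSplice adjusted p = 0.0160) through transcripts under 5% of the gene, and not in HT-1080 (adjusted p = 0.274). The PKM call was lost when any 1 HEK-293T control was left out.

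The IsoSeq transcript models allow the M1 and M2 exons to be counted directly, since the files give exon positions. They were found as the 2 adjacent internal exons of equal length, 167 bases, at chr15:72202454-72202620 (M2) and chr15:72203022-72203188 (M1), in coordinates of the files. Among models with either exon, the M2 exon alone was in 6 of 6 in the HEK-293T siNegative pool and in 10 of 10 in the siHNRNPH1 pool. In HT-1080 it was in 25 of 26 (96.2%, exact Clopper-Pearson 95% interval 80.4 to 99.9%) with siNegative and in 15 of 16 (93.8%, 69.8 to 99.8%) with siHNRNPH1. The 1 remaining model in each HT-1080 pool held both exons, and no model of any pool held the M1 exon alone. The models carry no read counts and there is 1 pool per group, so no difference was tested, and the intervals cover counting error only.

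VEGFA lists 26 transcripts, of which 7 held at least 5% of the gene in some group. In HEK-293T, ENST00000497139.5 held 36.7% ± 1.66 (SD, n = 3) with siNegative and 41.8% ± 3.84 with siHNRNPH1. In HT-1080 the same transcript held 7.96% ± 0.494 and 10.6% ± 0.980. In both lines every siHNRNPH1 library was above every control (exact permutation p = 0.1 in each, the smallest possible). The limma diffSplice adjusted p of this transcript was 0.836 in HEK-293T and 0.146 in HT-1080. ENST00000425836.8 and ENST00000372067.8 have identical values in every library and cannot be told apart: each held 22.2% with siNegative and 19.4% with siHNRNPH1 in HT-1080. There, ENST00000372077.8 went from 20.9% ± 2.07 to 17.4% ± 0.416 and ENST00000672860.3 from 11.4% ± 0.480 to 14.5% ± 0.965, without overlap. The limma diffSplice adjusted p in HT-1080 was 0.109 and 0.163 for these, and 0.223 for each of the identical transcripts.

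In HEK-293T, ENST00000523950.5 read 6.35%, 4.95% and 7.26% in controls and 0%, 1.99% and 0% with siHNRNPH1 (exact permutation p = 0.1, limma diffSplice adjusted p = 0.317). It was listed at 0 in every HT-1080 library. ENST00000480614.1 split by library, at 7.36% in siHNRNPH1 replicate 1 and 20.0% and 20.5% in replicates 2 and 3, against 14.2% ± 0.813 in controls. VEGFA usage as a whole was called in HT-1080 (limma diffSplice adjusted p = 3.47e-04, but 0.188 with diffSpliceDGE) and not in HEK-293T (adjusted p = 0.416). No VEGFA transcript of at least 5% of the gene in some group passed the transcript-level limma diffSplice threshold in either line. The shares are RSEM estimates from short reads, which divide reads among overlapping transcripts by a model.

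**Figure D5:**
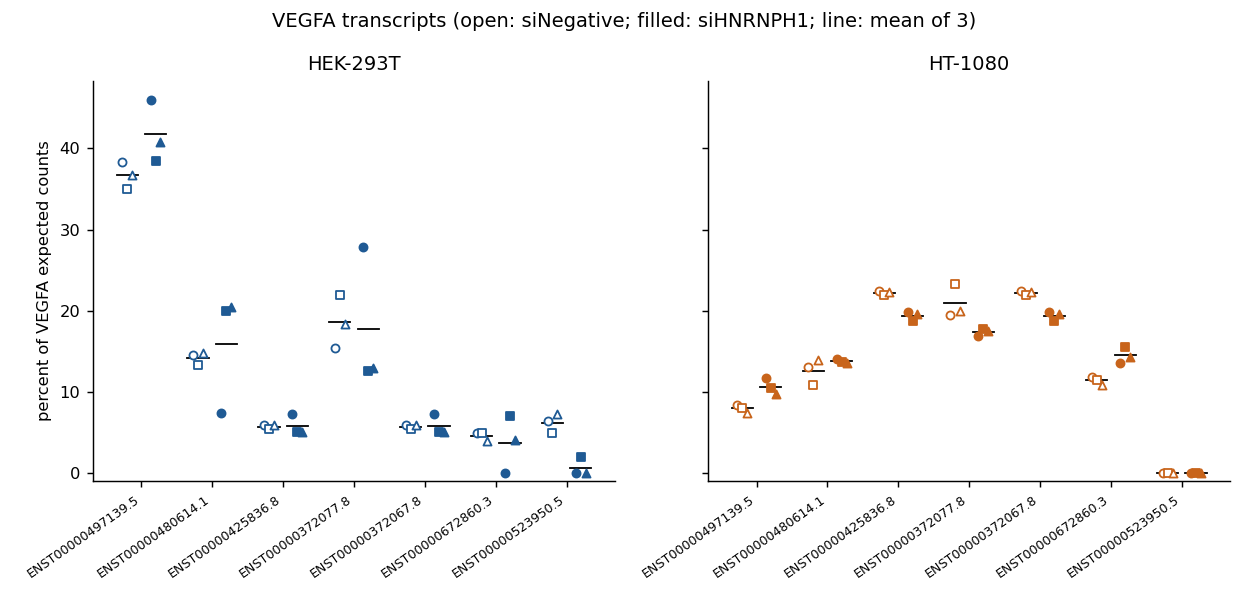
Percent of VEGFA expected counts (y axis) held by each transcript of at least 5% in any group (x axis) in HEK-293T (left) and HT-1080 (right); open symbols are siNegative, filled symbols siHNRNPH1, shapes are replicates 1, 2 and 3, and lines are means of 3 libraries. ENST00000497139.5 leads in HEK-293T and is a minor transcript in HT-1080, and HEK-293T siHNRNPH1 replicate 1 (filled circle) lies apart in several transcripts.

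Other genes of related pathways were taken by name from lists chosen with earlier results of these data known. Some lists, such as those of other HIF targets and of regulators, are selections and not whole pathways. Their counts stand beside 32.7% of all genes higher and 32.6% lower in HT-1080, and 5.12% higher and 4.88% lower in HEK-293T. Of 13 tested components of the HIF pathway in HT-1080, 5 rose and 5 fell. EPAS1, the HIF2A subunit, rose from 89.8, 76.8 and 91.2 CPM to 210.2, 206 and 203 CPM (log2 fold change 1.20, SE 0.06, edgeR adjusted p = 1.81e-07) and ARNT, the shared partner subunit, by 0.51 (SE 0.06, adjusted p = 7.85e-05). RBX1 and ELOC, parts of the VHL ubiquitin ligase, fell by 0.51 and 0.40. In HEK-293T, VHL itself fell from 140.1, 143 and 139 CPM to 70.5, 91.5 and 93.9 CPM (-0.75, SE 0.13, edgeR adjusted p = 0.0241, and -0.66 without replicate 1), and in HT-1080 it fell by 0.21 (adjusted p = 0.0148). The other of the 2 components called among 14 in HEK-293T was HIF3A, a HIF alpha subunit, which is outside the naming rule for its low counts and was named after its values were seen. HIF3A went there from 0.153, 0.0947 and 0.124 CPM to 0.297, 0.257 and 0.362 CPM, or 11 to 39 counts (1.27, SE 0.29, edgeR adjusted p = 0.0459, and 0.00572 without replicate 1), and it had 0 counts in every HT-1080 library.

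Of 28 other tested HIF targets in HT-1080, 16 rose and 5 fell, with a median of 0.35. STC2, a secreted glycoprotein, rose by 1.25 (SE 0.04, edgeR adjusted p = 1.48e-08) and TMEM45A by 1.08 (SE 0.11, adjusted p = 1.60e-05), while AK4, a mitochondrial adenylate kinase, and ANKZF1 each fell by 0.27. In HEK-293T only P4HA2, the paralog of P4HA1, was called among 29, and it fell (-0.74, SE 0.11, adjusted p = 0.0145, and -0.74 without replicate 1).

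Among other isozymes and regulators, 3 of 7 tested rose and 2 fell in HT-1080. PDK2, another pyruvate dehydrogenase kinase, had the largest called change of these further genes in HT-1080, from 2.05, 1.76 and 1.59 CPM to 12.7, 12.1 and 14.0 CPM (log2 fold change 2.78, SE 0.12, edgeR adjusted p = 5.50e-08). In HEK-293T it read 21.4, 21.5 and 21.7 CPM against 32.8, 21.4 and 19.2 CPM, overlapping, and was not called (adjusted p = 0.697). Its interaction was 2.52 (SE 0.31, adjusted p = 3.47e-04). PFKFB2, a heart-type relative of PFKFB4, rose by 0.77, and BPGM and ADPGK fell by 0.28 and 0.18, all in HT-1080. In HEK-293T, 0 of 9 were called by edgeR, with 3 at an unadjusted p under 0.05, and DESeq2 called 3.

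Of 7 pentose phosphate enzymes, 5 fell and none rose in HT-1080, led by PGD, which makes NADPH (-0.65, SE 0.04, edgeR adjusted p = 1.22e-06), and RPIA (-0.58, SE 0.08, adjusted p = 1.56e-04). In HEK-293T, 0 of 7 were called by edgeR, with 0 at an unadjusted p under 0.05, and DESeq2 called 0. Of 27 genes of pyruvate entry and the citric acid cycle, 8 rose and 13 fell in HT-1080. PDP1, the phosphatase that opposes the PDK kinases, rose by 1.20 (SE 0.06, edgeR adjusted p = 2.11e-07) and pyruvate carboxylase PC by 0.70. The fumarase gene FH fell by 0.87 (SE 0.06, adjusted p = 7.31e-07) and SUCLG2, a succinyl-CoA ligase subunit, by 0.76. SUCLG2 was the 1 gene of 27 called in HEK-293T, at -0.93 (SE 0.12, adjusted p = 0.0110, and -0.87 without replicate 1).

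SLC37A4, the glucose-6-phosphate transporter of the endoplasmic reticulum, fell by similar amounts in both lines. It went from 94.6, 94.7 and 98.9 CPM to 24.1, 22.0 and 22.8 CPM in HEK-293T (log2 fold change -2.09, SE 0.13, edgeR adjusted p = 0.00335, and -2.16 without replicate 1), with replicate 1 close to the others. In HT-1080 it went from 29.3, 29.5 and 27.5 CPM to 7.40, 6.68 and 7.38 CPM (-2.08, SE 0.07, adjusted p = 1.45e-08). Its interaction was -0.06 (SE 0.14, adjusted p = 0.826). The only other gluconeogenesis gene called in HT-1080 was PCK2, a mitochondrial carboxykinase, at -0.52 (adjusted p = 0.00157), of 3 tested.

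Regulators of PKM splicing and of glycolytic transcription moved in opposite ways between the lines at MYC, a transcription factor that raises many glycolytic genes. In HEK-293T, MYC rose from 52.4, 54.7 and 55.9 CPM to 146, 115 and 106 CPM (log2 fold change 1.15, SE 0.18, edgeR adjusted p = 0.0189, and 0.96 without replicate 1). In HT-1080 it fell from 43.1, 42.1 and 42.0 CPM to 20.2, 21.8 and 21.7 CPM (-1.06, SE 0.05, adjusted p = 1.55e-07), and the interaction was -2.29 (SE 0.20, adjusted p = 4.39e-05). TXNIP, a glucose-responsive inhibitor of glucose uptake, rose in HT-1080 by 0.85 (adjusted p = 2.66e-06) and held 34.6 CPM and 26.0 CPM in HEK-293T (adjusted p = 0.0829), a difference of 1.21 (adjusted p = 1.36e-04). HNRNPA2B1, a splicing factor of PKM, fell in HT-1080 by 0.77 (SE 0.04, adjusted p = 3.38e-07) and MLXIP, a glucose-sensing factor, rose by 0.39. In all, 2 of 9 regulators rose and 6 fell in HT-1080, and 1 of 11, MYC, was called in HEK-293T. Of the HEK-293T calls for VHL, HIF3A, P4HA2, SUCLG2, SLC37A4 and MYC, none was left without control replicate 2 or 3, where edgeR called 0 genes of any kind.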

How the data were processed

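The authors deposited 1 table per cell line of expected counts per transcript, estimated with RSEM per the submitters' processing notes, which name GRCh38.p13. The aligner, annotation release, trimming and strandedness are not given in the sources used here. Deposited values were matched to samples by column name and added up per gene, then rounded. Those passing filterByExpr were scaled by TMM and tested with edgeR 4.0.16 (robust quasi-likelihood, two-sided, R 4.3.3), per line and as a line by siRNA interaction. Adjusted p-values are Benjamini-Hochberg over all genes tested, threshold 0.05. The SE of an edgeR log2 fold change is its absolute value divided by the square root of the test's F statistic. It is thus implied by the test and is not a separate output of the fit. CPM is the expected count divided by the library total, times 1e6. Transcript usage was tested with limma 3.58.1 diffSplice on voom weights, and DESeq2 1.42.0 was an alternative. Single shares were compared by exact permutation. The gene and usage tests were tested on simulated data. The full-length cDNA files list transcript models with exon positions and no counts. The members, lists, tests and alternatives were chosen with earlier results of these data known. All 37 members are named. Values in every library are given for PKM, VEGFA, the 4 called genes per direction and line with the largest change and a mean count of at least 50, the 4 smallest interaction p-values, and some genes beyond that rule, chosen after their values were seen. Of other lists, the 2 called genes with the largest change per line and direction are named. No pair of libraries within a group agreed within sampling noise. The labels call the replicates biological and say no more, so p-values measure the spread between these samples. The exon pair of PKM was planned as mutually exclusive and was taken as adjacent exons of equal length, since 1 model per HT-1080 pool held both.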

Additional observations from a re-analysis of the deposited data

Results flagged for a closer look

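The siRNA effect differed between HEK-293T and HT-1080 by the interaction test of edgeR (adjusted p under 0.05 over all genes) for 12 genes, and values are log2 fold changes in HT-1080 minus those in HEK-293T. The difference was positive for SLC2A3 (1.19), VEGFA (0.62), P4HA1 (0.60) and ENO2 (0.44). It was negative for SLC16A3 (-1.86), EGLN3 (-1.67), PDK3 (-0.90), PFKFB4 (-0.88), BNIP3 (-0.63), LDHA (-0.57), HK1 (-0.55) and NDRG1 (-0.46). SLC16A3 held 6 to 23 counts per library in HEK-293T, so its difference rests on few reads there.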

How the results depend on the processing

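The number of genes called in HEK-293T, 3 as reported, was 6 with DESeq2 (19.9% of all genes) and 12 with 1 spread shared by all 12 libraries (21.4%). It was 0 to 24 when 1 library was left out (0% to 61.8% of all genes), and the cause was not tested. In HT-1080 the 29 calls became 14 with the shared spread (29.3% of all genes). The 12 differences between lines became 5 without the low-count filter (8.26% of all genes) and 8 to 30 with 1 library left out (11.9% to 49.0%). Usage calls in HEK-293T, 6 of 34 as reported, were 3 of 23 with transcripts of at least 5% of the gene, beside 1213 of all 10956 genes. With 1 library left out they were 1 to 14, the 1 beside 361 to 395 of all genes and the 14 beside 5576 of 13394. Usage calls in HT-1080, 14 of 35 as reported, were 3 with edgeR's diffSpliceDGE, beside 577 of all 10752 genes. They were 8 to 14 with 1 library left out, beside 1530 to 2234 of all genes. The shared spread turned HK1, HK2 and PGAM1 in HEK-293T to 0.06, 0.03 and 0.02, and library size alone turned HK1 and HK2 to 0.02 and 0.02. Library size alone also turned GAPDH, CA9 and HIF1A in HT-1080 to 0.05, 0.03 and 0.06, and the differences of PFKM and EGLN1 to 0.08 and 0.06, or 0.07 and 0.05 without the low-count filter. It moved the median of all genes by 0.03 in HEK-293T, 0.07 in HT-1080 and 0.11 in the difference, where the absent filter moved it by 0.10.

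With 1 library left out, values that changed sign in HEK-293T ranged from -0.03 to 0.02 for HK1, -0.18 to 0.25 for HK2, -0.01 to 0.24 for GPI, -0.21 to 0.43 for ALDOA, -0.12 to 0.60 for GAPDH, -0.05 to 0.11 for PGK1, -0.20 to 0.03 for PGAM1, -0.02 to 0.53 for ENO1, -0.07 to 0.26 for LDHB, -0.06 to 0.22 for SLC2A3, -0.31 to 0.00 for SLC16A1, -0.30 to 0.03 for PFKFB3, -0.38 to 0.15 for HIF1A and -0.21 to 0.16 for KDM3A. In HT-1080 they ranged from -0.07 to 0.05 for GAPDH, -0.09 to 0.03 for CA9 and -0.07 to 0.02 for HIF1A. For the difference they ranged from -0.03 to 0.47 for PFKL, -0.06 to 0.01 for PFKM, -0.62 to 0.08 for ALDOA, -0.46 to 0.05 for ALDOC, -0.73 to 0.05 for GAPDH, -0.14 to 0.01 for EGLN1, -0.21 to 0.29 for HIF1A and -0.64 to 0.18 for ANKRD37. Transcript shares in HEK-293T ranged, in percentage points, from -1.25 to 0.729 for PKM ENST00000335181.10, and for VEGFA from -0.546 to 6.02 for ENST00000480614.1, -0.654 to 0.493 for ENST00000425836.8 and ENST00000372067.8, -5.78 to 1.85 for ENST00000372077.8 and -2.55 to 0.986 for ENST00000672860.3.

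Whether the replicate numbers pair the libraries could not be decided from deviations around means of 3. Deviations of libraries with the same number correlated at 0.09, 0.10 and 0.02 in HEK-293T and at -0.00, 0.09 and 0.03 in HT-1080. In HEK-293T each control correlated best with the siHNRNPH1 library of its number, though siHNRNPH1 replicate 3 correlated best with control 2 (0.06). In HT-1080 controls 1 and 3 did not correlate best with their own number. A replicate block gave 0 calls in HEK-293T, where edgeR called 0 of all 19966 genes (4169 at an unadjusted p under 0.05). It gave 29 calls in HT-1080, beside 65.1% of all genes, and 6 for the difference, beside 11.9%. Usage calls with the block were 7 in HEK-293T, beside 1087 of all 13018 genes, and 16 in HT-1080, beside 2417 of 10752. HEK-293T libraries held 107.7 to 121.0 mega counts and HT-1080 libraries 27.3 to 32.7. Counts were low for CA9 and SLC16A3 in the deeper HEK-293T libraries and for ADM and EGLN3 in HT-1080, which limits the precision of these values.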
